A study of Mus musculus with 2 samples.

Results

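Lysosomes break down protein, glycan and lipid with acid hydrolases, inside a membrane rich in glycoproteins and behind a proton pump that keeps the lumen acidic. The transcription factors Mitf, Tfe3, Tfeb and Tfec form the MiT/TFE family, which binds E-box letters in promoters and, through the longer CLEAR element around them, drives many lysosome genes. In mast cells the secretory granule is a lysosome-related organelle that holds cathepsins, glycosidases and Cd63 beside the granule proteases, and Mitf is needed for mast cells to develop. The set described here holds 32 genes, of 34797 gene names on the array. They were chosen by name, with earlier results of these data known. They are 19 hydrolases and their cofactors (10 proteases, 6 glycosidases and 3 genes of lipid degradation), 6 membrane proteins, 3 proton pump genes and the 4 MiT/TFE factors. A total of 48 probes on 57 spots carry these names.

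Bone marrow-derived mast cells of C57BL/6 mice were compared after transfection with a GATA1 siRNA or with a control siRNA, 200 pmol each. Marrow cells of both groups had been grown for 2 weeks with interleukin 3 and for 2 further weeks with interleukin 3 and stem cell factor, each at 10 ng/mL. Each group is 1 array hybridised with RNA pooled from 2 animals, so the spread between animals cannot be seen, no test across samples exists and no p-value is given. The siRNA sequences, the time between transfection and harvest and any effect of the siRNA on genes other than Gata1 are not given in the sources used here. GATA1, with its zinc fingers, regulates genes of the mast cell, eosinophil, erythroid and megakaryocyte lineages.

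Signals are given as multiples of each array's 75th percentile of probe signal ("scaled signal"), which was 340.0 scanner units on the GATA1 siRNA array and 303.2 on the control siRNA array. A gene counts as measured where a probe was well above background on both arrays, and its log2 difference is GATA1 siRNA minus control siRNA. Of all spots, 55.7% were well above background on the GATA1 siRNA array and 53.3% on the control siRNA array, and no spot was saturated. Gata1 itself had a scaled signal of 11.6 in GATA1 siRNA cells and 54.1 in control siRNA cells, 4.68-fold lower with the GATA1 siRNA, at a probe on chromosome X (mm9, 7536392 to 7536451, minus strand). As a check of the mast cell label, all 11 mast cell markers on the list were measured on both arrays. Of these 11 mast cell markers, 3 were above 0, 8 were below, 4 of them by a log2 difference of 0.32 or more, and the median was -0.12. Of all measured genes, 9.52% were lower by 0.32 or more. Over the 20399 measured genes, the median difference was 0.01, the SD 0.29 and the 5th to 95th percentile -0.46 to 0.40.

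Of the 32 genes, 31 were measured on both arrays. Their median difference was 0.19, a 1.14-fold higher signal with the GATA1 siRNA, beside 0.01 over all measured genes. With loess or quantile scaling the member median was 0.13, beside all-gene medians of 0.01 and 0. All measured genes were not matched to the members by signal level. Of the 31, 26 were above 0 and 5 below, where 52.7% of all measured genes were above 0. By the finer rule of size, a log2 difference of at least 0.32, 8 members were higher in GATA1 siRNA cells (25.8%), against 7.29% of all measured genes. These were Ctsb, Scarb2, Ctsd, Ctsl, Gm2a, Ctse, Lamp1 and Psap. The count was 6 with loess or quantile scaling, where Lamp1 (0.31 and 0.29) and Psap (0.27 with both) were under the rule. The members were chosen with earlier results of these data known. Of 102 measured lysosome genes outside the set, 15.7% were higher by 0.32 or more, with a median of 0.11. None of the 31 was lower by 0.32 or more, where 9.52% of all measured genes were, and none reached 2-fold in either direction, where 0.294% of all genes were that much higher and 0.608% that much lower. The scanner software's own error of a difference was 0.20 log2 for most member probes measured on both arrays and 0.34 at most among those. Against its own error, 14 members were higher by more and 17 lay within it, and no member was lower by more. The share of all measured genes past their own error was not counted, so the 14 have no all-gene share beside them. The smallest of the 14 differences, that of Ctsz at 0.25, stood at the 88.7th percentile of all measured genes. Cln3, within its error at 0.19, stood at the 84.0th percentile. The members just inside the 0.32 rule were Psap at 0.33 and Lamp1 at 0.36, and those just outside it were Lgmn at 0.31 and Atp6ap1 at 0.29. The arrays measure bulk RNA, so more RNA per mast cell and more cells of a type rich in lysosomes cannot be told apart.

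**Figure D1:**
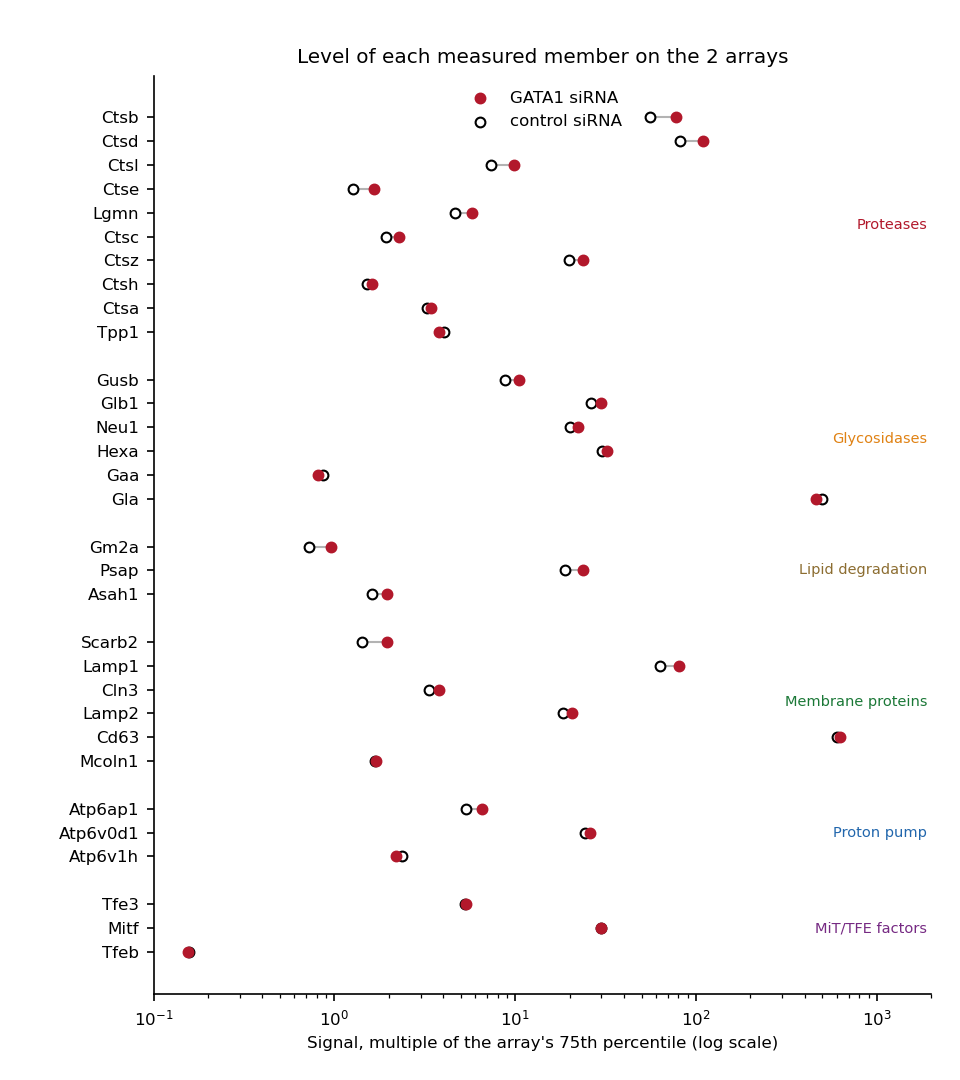
Scaled signal of the 31 measured members (multiples of each array's 75th percentile, log axis), grouped by role, with a filled point for the GATA1 siRNA array and an open point for the control siRNA array. Signal depends on the probe, so rows are read within a gene and not against each other. Most proteases, such as Ctsb at 77.1 against 55.9, have the filled point to the right, while the points of Mitf and Tfe3 coincide.

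The promoters of these genes are shown first, because E-box letters near the start site are the feature that ties them to the MiT/TFE factors. RefSeq promoter windows (GRCm38.p6, 250 bases before to 50 after the start) were at hand for 27 of the 32 members in 36 windows. Ctsb, Ctse, Ctsh, Asah1 and Atp6v1h had none in the table. The E-box core of the CLEAR element, TCACGTG on either strand, stood in a window of 10 of the 27 members (37.0%), beside 1160 of all 27025 genes in the table (4.29%). These were Ctsa, Ctsd and Lgmn among proteases, Gaa, Gla and Glb1 among glycosidases, Cln3, Lamp1 and Mcoln1 among membrane proteins, and Atp6v0d1 of the proton pump. The shorter E-box CACGTG, which lies inside that core, was found in the same genes and in Ctsl, 11 of 27, beside 8.09% of all genes. The 10 genes held 18 cores, 8 of them read on both strands, and 11 cores lay within 100 bases before the start. Lamp1 had 4 and Cln3, Ctsa, Ctsd, Gla and Mcoln1 had several each. No window of a MiT/TFE factor held the core. TCATGTG, the other E-box searched, was in 4 of 27 members (14.8%; Ctsa, Gla, Scarb2 and Tpp1), beside 4.31% of all genes. Of the strings GATA factors bind, only AGATAA and TGATAA were searched, so the count of members with any such string is not known. AGATAA was in 3 of 27 (11.1%; Ctsz, Gla and Psap), beside 12.7% of all genes, and TGATAA in 5 (18.5%; Ctsz, Mitf, Tfe3, Tfec and Tpp1), beside 10.4%. A match is a string of letters in a window of the reference and not a measured binding site.

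Printed here are windows of 3 genes with the core and a difference of 0.31 or more (Ctsd, Lamp1, Lgmn), 2 genes with the core and a difference near or below 0 (Mcoln1, Gla), and Tfec, a factor without the core. All are from the RefSeq table on GRCm38.p6, read on the gene's strand, and lie at chr7:142387778-142388077 (minus) for Ctsd, chr8:13158911-13159210 (plus) for Lamp1, chr12:102439043-102439342 (minus) for Lgmn, chr8:3500269-3500568 (plus) for Mcoln1, chrX:134600956-134601255 (minus) for Gla and chr6:16898392-16898691 (minus) for Tfec. Capitals mark the letters of any of the 5 motifs searched. Other GATA strings, such as TGATAG in the Lgmn window, were not searched and stay in lower case.
Ctsd: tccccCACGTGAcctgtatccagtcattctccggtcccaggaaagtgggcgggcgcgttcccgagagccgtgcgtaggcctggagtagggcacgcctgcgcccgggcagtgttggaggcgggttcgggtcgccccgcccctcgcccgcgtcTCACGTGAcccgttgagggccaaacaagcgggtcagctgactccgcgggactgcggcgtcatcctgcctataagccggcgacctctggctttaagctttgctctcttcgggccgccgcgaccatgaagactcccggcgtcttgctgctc
Lamp1: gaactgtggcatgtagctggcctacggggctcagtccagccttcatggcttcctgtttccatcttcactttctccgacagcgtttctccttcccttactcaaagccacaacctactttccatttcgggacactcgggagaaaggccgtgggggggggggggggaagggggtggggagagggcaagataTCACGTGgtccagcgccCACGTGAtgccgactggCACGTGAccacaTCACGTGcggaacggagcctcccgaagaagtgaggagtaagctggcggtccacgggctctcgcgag
Lgmn: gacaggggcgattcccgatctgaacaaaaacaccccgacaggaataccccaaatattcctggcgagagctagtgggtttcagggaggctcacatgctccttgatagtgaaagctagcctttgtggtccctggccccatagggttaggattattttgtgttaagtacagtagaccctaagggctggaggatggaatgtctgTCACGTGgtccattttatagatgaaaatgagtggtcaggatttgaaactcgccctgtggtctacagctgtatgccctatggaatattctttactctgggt
Mcoln1: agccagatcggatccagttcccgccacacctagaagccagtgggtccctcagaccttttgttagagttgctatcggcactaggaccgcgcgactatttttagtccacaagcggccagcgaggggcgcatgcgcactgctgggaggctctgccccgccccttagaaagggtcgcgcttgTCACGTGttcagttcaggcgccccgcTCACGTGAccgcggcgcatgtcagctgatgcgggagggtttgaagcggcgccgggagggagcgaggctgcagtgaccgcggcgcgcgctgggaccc
Gla: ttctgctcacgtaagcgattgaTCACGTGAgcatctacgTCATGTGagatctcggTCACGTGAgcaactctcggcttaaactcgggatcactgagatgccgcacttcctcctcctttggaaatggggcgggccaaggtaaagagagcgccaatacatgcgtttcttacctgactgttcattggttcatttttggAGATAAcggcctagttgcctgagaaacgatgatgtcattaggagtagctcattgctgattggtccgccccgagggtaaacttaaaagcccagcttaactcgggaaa
Tfec: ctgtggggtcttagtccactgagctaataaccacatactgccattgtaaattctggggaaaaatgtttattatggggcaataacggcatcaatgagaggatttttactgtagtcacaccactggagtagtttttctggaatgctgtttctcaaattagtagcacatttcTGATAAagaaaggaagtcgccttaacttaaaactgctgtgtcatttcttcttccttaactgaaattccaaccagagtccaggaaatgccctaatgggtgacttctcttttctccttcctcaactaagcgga
Counted from the start of transcription of the printed window, the first base of the E-box stood at -245 and -98 in Ctsd, at -61, -45, -28 and -15 in Lamp1, at -49 in Lgmn, at -71 and -45 in Mcoln1 and at -227 and -194 in Gla. Lgmn has another window, at chr12:102439679-102439978, that held none of the motifs. Ctsa and Cln3 likewise had a window with none of them. The only capitals in Tfec are TGATAA at -81. In Gla the capitals also mark TCATGTG at -211 and AGATAA at -56.

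Differences of members with and without the core overlapped. The 10 members with TCACGTG had a median difference of 0.14 and a range of -0.11 to 0.42, and 2 of them, Ctsd and Lamp1, were higher in GATA1 siRNA cells by 0.32 or more. The 16 measured members whose windows lacked it had a median of 0.21, and 4 were higher by 0.32 or more. The 5 members without a window had a median of 0.28, and 2 passed the rule.

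**Figure D2:**
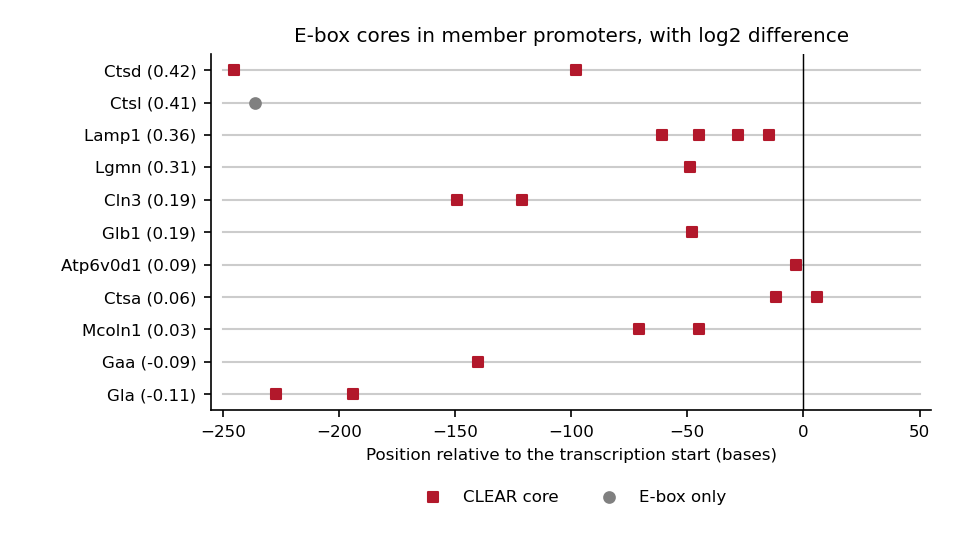
Positions of the E-box letters CACGTG in the promoter windows of the 11 members that hold them, in bases from the transcription start. Matches of TCATGTG are not drawn. Members are ordered from the highest log2 difference (in brackets, GATA1 siRNA minus control siRNA) down. Squares are TCACGTG cores and the circle is CACGTG alone. Lamp1 has 4 squares before the start, and Mcoln1, Gaa and Gla carry squares at differences of 0.03, -0.09 and -0.11.

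Several lysosomal proteases had a higher signal with the GATA1 siRNA. Of 10 proteases, 9 were above 0, 4 were higher in GATA1 siRNA cells by 0.32 or more, and the median difference was 0.28. Ctsb, a cysteine protease of broad specificity, had a scaled signal of 77.1 in GATA1 siRNA cells and 55.9 in control siRNA cells, a difference of 0.46 and the highest in the set. Its probe lies on chromosome 14 (mm9, 63761906 to 63761965). Ctsl, a second endopeptidase of the same family, had 9.84 in GATA1 siRNA cells and 7.39 in control siRNA cells (0.41; chromosome 13, 64465287 to 64465346). Both cysteine proteases were 1.33-fold or more higher in GATA1 siRNA cells.

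Ctsd, the main lysosomal aspartic protease, whose promoter is printed above, averaged 109 in GATA1 siRNA cells and 81.4 in control siRNA cells over 2 probes (0.42). The probes gave 0.31, just under the 0.32 rule, and 0.54. The probe with the smaller difference, on chromosome 7 at 149561962 to 149562021, had 489 in GATA1 siRNA cells and 396 in control siRNA cells, and the other, whose annotated match spans 1659 bases from 149566847 to 149568505, had 24.4 in GATA1 siRNA cells and 16.8 in control siRNA cells. The probes of Ctsd therefore shared a direction and differed in size. Ctse, an aspartic protease of endosomes and immune cells, had 1.66 in GATA1 siRNA cells and 1.27 in control siRNA cells (0.39; chromosome 1, 133571990 to 133572049).

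The other 6 proteases were under the 0.32 rule. Lgmn, an endopeptidase that cuts after asparagine and processes cathepsins, had 5.79 in GATA1 siRNA cells and 4.66 in control siRNA cells (0.31, 1.24-fold). Ctsc, the dipeptidyl peptidase that activates the granule serine proteases of mast cells, averaged 2.29 in GATA1 siRNA cells and 1.93 in control siRNA cells (0.25). Its bright probe had 14.6 in GATA1 siRNA cells and 12.3 in control siRNA cells (0.24). The dim probe of Ctsc had 0.360 in GATA1 siRNA cells and 0.302 in control siRNA cells (0.26). Ctsz, a carboxypeptidase, had 23.6 in GATA1 siRNA cells and 19.9 in control siRNA cells (0.25). All 3 were higher by more than the software error. Ctsh, an aminopeptidase, had 1.62 in GATA1 siRNA cells and 1.51 in control siRNA cells (0.10). Ctsa, a carboxypeptidase that also protects Glb1 and Neu1 in their complex, averaged 3.40 in GATA1 siRNA cells and 3.27 in control siRNA cells (0.06). Its bright probe had 120 in GATA1 siRNA cells and 113 in control siRNA cells (0.08). The dim probe of Ctsa had 0.0964 in GATA1 siRNA cells and 0.0941 in control siRNA cells (0.04). Tpp1, a tripeptidyl peptidase, was the protease below 0, with 3.79 in GATA1 siRNA cells and 4.04 in control siRNA cells (-0.09). These last 3 lay within the software error.

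**Figure D3:**
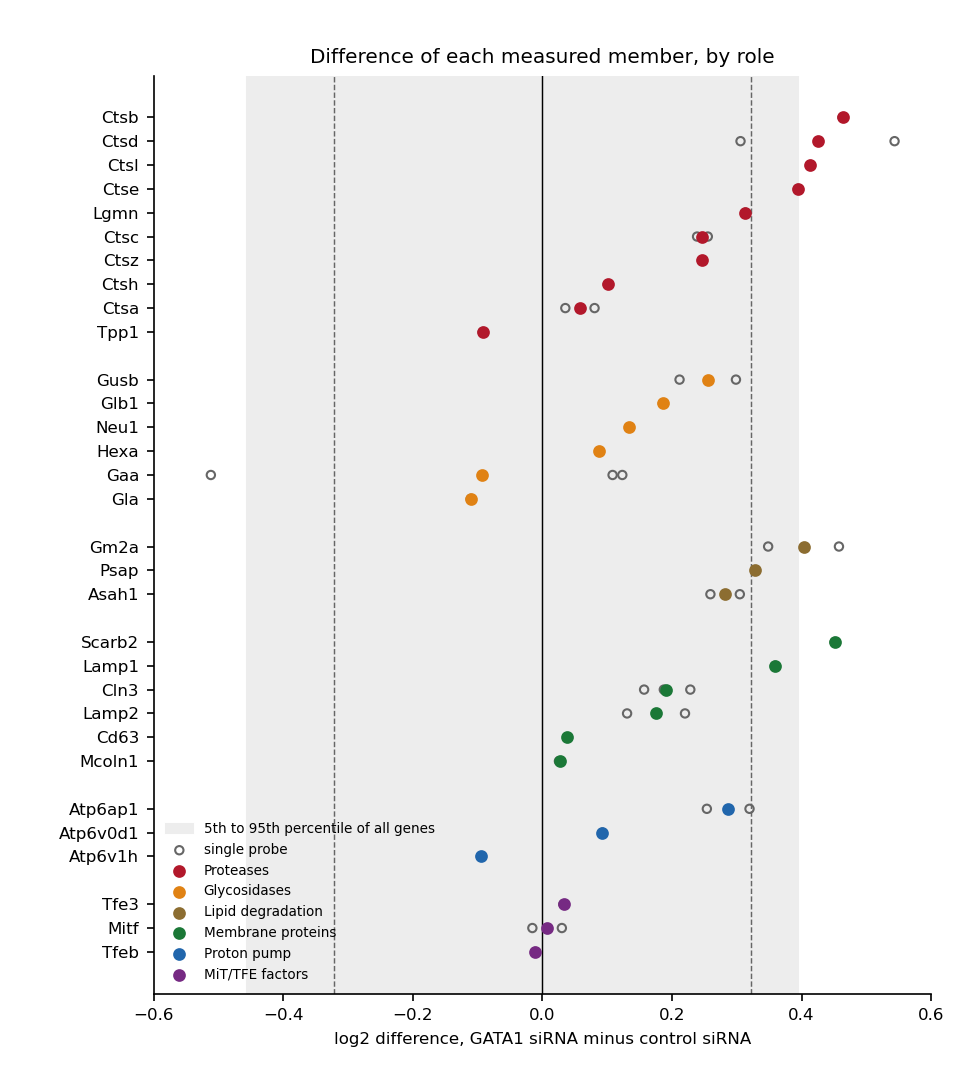
Log2 difference (GATA1 siRNA minus control siRNA) of each measured member, as a coloured point by role, with the probes of the gene as open circles. The grey band is the 5th to 95th percentile of all measured genes (-0.46 to 0.40) and the dashed lines are the 0.32 rule. Of the members, 8 lie beyond the right dashed line and none beyond the left, and the dim probe of Gaa at -0.51 stands apart from its other probes.

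All 3 genes of lipid degradation were above 0. Gm2a, the cofactor that presents gangliosides to the hexosaminidase of Hexa, averaged 0.963 in GATA1 siRNA cells and 0.728 in control siRNA cells over 2 probes (0.40, with 0.35 and 0.46 for the single probes), and 0.21 after another background correction (normexp). The probe of Gm2a with 0.46 was dim, at 28.9 scanner units in GATA1 siRNA cells and 18.8 in control siRNA cells, while the other had 3709 in GATA1 siRNA cells and 2598 in control siRNA cells. Psap, the precursor of the saposins that help lipid hydrolases, had 23.7 in GATA1 siRNA cells and 18.9 in control siRNA cells (0.33; chromosome 10, 59764825 to 59764884). Asah1, the acid ceramidase, had 1.96 in GATA1 siRNA cells and 1.61 in control siRNA cells (0.28), with its probes at 0.26 and 0.30. The median of the 3 genes was 0.33, and 2 of 3 passed the 0.32 rule.

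The glycosidases were mixed, with a median of 0.11, 4 of 6 above 0 and none past the 0.32 rule in either direction. Their median was 0.05 with loess and 0.06 with quantile scaling. Gusb, the beta-glucuronidase, averaged 10.4 in GATA1 siRNA cells and 8.75 in control siRNA cells (0.26). One of its probes is printed on 10 spots, whose differences ran between 0.13 and 0.26 with a mean of 0.21 and an SD of 0.04, and the other probe gave 0.30. Every one of the 10 spots of Gusb was higher on the GATA1 siRNA array. Glb1, the beta-galactosidase, had 29.9 in GATA1 siRNA cells and 26.3 in control siRNA cells (0.19). Neu1, the sialidase held in a complex with Glb1 and Ctsa, had 22.1 in GATA1 siRNA cells and 20.2 in control siRNA cells (0.13). Hexa, the alpha subunit of beta-hexosaminidase, an enzyme that mast cells release with their granules, had 32.1 in GATA1 siRNA cells and 30.2 in control siRNA cells (0.09).

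The remaining glycosidases were below 0. Gla, the alpha-galactosidase, was the lowest of the 31 measured members, with 461 in GATA1 siRNA cells and 497 in control siRNA cells (-0.11), and its printed promoter holds 2 cores. Gaa, the acid alpha-glucosidase that breaks down glycogen, averaged 0.811 in GATA1 siRNA cells and 0.865 in control siRNA cells (-0.09), and its 3 probes did not agree in sign. The brightest, with 12717 scanner units in GATA1 siRNA cells and 10410 in control siRNA cells, gave 0.12, a second gave 0.11, and the dimmest, with 25.4 in GATA1 siRNA cells and 32.3 in control siRNA cells, gave -0.51. The sign of Gaa therefore rests on its dimmest probe, and with the brightest probe alone or with the median of the probes it was 0.12 or 0.11.

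All 6 membrane proteins were above 0, with a median of 0.18, and 2 passed the 0.32 rule. Scarb2, the receptor that carries glucocerebrosidase to the lysosome, had 1.95 in GATA1 siRNA cells and 1.42 in control siRNA cells (0.45). Its probe is annotated across 1334 bases of chromosome 5 (mm9, 92877611 to 92878944), where most member probes span 60. Lamp1, an abundant glycoprotein of the lysosomal membrane, had 80.7 in GATA1 siRNA cells and 63.0 in control siRNA cells (0.36; chromosome 8, 13175277 to 13175336). Lamp1 is also the member with the most E-box cores in its printed promoter. Lamp2, its relative, averaged 20.6 in GATA1 siRNA cells and 18.3 in control siRNA cells (0.18). The probes of Lamp2 are annotated to different transcript records and gave 0.22 and 0.13.

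Cln3, a membrane protein mutated in juvenile neuronal ceroid lipofuscinosis, averaged 3.79 in GATA1 siRNA cells and 3.32 in control siRNA cells (0.19) over 3 probes that ranged between 0.16 and 0.23. Cd63, a tetraspanin of lysosomes and mast cell granules, had 622 in GATA1 siRNA cells and 606 in control siRNA cells (0.04). Mcoln1, a lysosomal cation channel, averaged 1.71 in GATA1 siRNA cells and 1.68 in control siRNA cells (0.03), with 0.03 at both probes. A dim probe of Mcoln1 had 57.1 scanner units in GATA1 siRNA cells and 49.9 in control siRNA cells, and the other had 5901 and 5169. Cd63 and Mcoln1 were within the software error, and Mcoln1 carries 2 cores in its printed promoter.

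The proton pump had 3 members, with a median of 0.09. Atp6ap1, an accessory protein of the pump, averaged 6.52 in GATA1 siRNA cells and 5.35 in control siRNA cells (0.29), with 0.25 and 0.32 at its probes. Atp6v0d1, a subunit of the domain in the membrane, had 25.9 in GATA1 siRNA cells and 24.3 in control siRNA cells (0.09). Atp6v1h, a subunit of the cytosolic domain, had 2.20 in GATA1 siRNA cells and 2.35 in control siRNA cells (-0.09). Only Atp6ap1 of these 3 differed by more than the software error.

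The MiT/TFE factors that were measured differed little, with a median of 0.01. Mitf averaged 29.8 in GATA1 siRNA cells and 29.7 in control siRNA cells (0.01), and its probes, on chromosome 6 at 97968501 to 97968560 and 97971229 to 97971288, gave -0.02 and 0.03. Tfe3 averaged 5.37 in GATA1 siRNA cells and 5.25 in control siRNA cells (0.03), and both of its probes gave 0.03. Tfe3 is a neighbour of Gata1 on chromosome X: its probes (7352069 to 7352327) lie 184 kb from the Gata1 probe on mm9. The signs of Mitf and Tfe3 turned with loess and quantile scaling, to -0.05 for Mitf and to -0.01 for Tfe3.

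Tfeb and Tfec were near the background of the arrays. The measured probe of Tfeb (chromosome 17, 47929089 to 47929148) had 52.7 scanner units in GATA1 siRNA cells and 47.4 in control siRNA cells, and a scaled signal of 0.155 in GATA1 siRNA cells and 0.156 in control siRNA cells (-0.01). That sign also turned, to 0.05 with the authors' table, 0.06 with loess and 0.04 with quantile scaling. A further Tfeb probe was not well above background on either array, with 7.75 scanner units in GATA1 siRNA cells and 3.28 in control siRNA cells. Tfec, a family member known from macrophages, was well above background on the GATA1 siRNA array only, with 22.5 scanner units there and 9.01 on the control siRNA array (chromosome 6, 16783720 to 16783779). The scaled signal of Tfec in GATA1 siRNA cells was 1.33-fold the lowest control siRNA signal that was still well above background. Its probe had a software error of 0.61 log2, larger than that of any member probe measured on both arrays, so no least difference can be given. Whether the proteins moved, or the share of them in the nucleus, through which this family is controlled, is not measured by RNA.

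Precision could be read within the arrays. For the 176 measured probes with 10 spots each, differences between spots had a median SD of 0.06, which was 0.18 for the dimmest 44 probes and 0.03 for the brightest 44. Between probes of the same gene the median SD was 0.10 over 5666 genes and 0.04 over the 13 members with several measured probes. In 11 of those 13 members all probes had the same sign, the exceptions being Gaa and Mitf. The other 18 members rest on 1 probe. This spread is that of spots and probes and holds nothing of cells or animals.

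**Figure D4:**
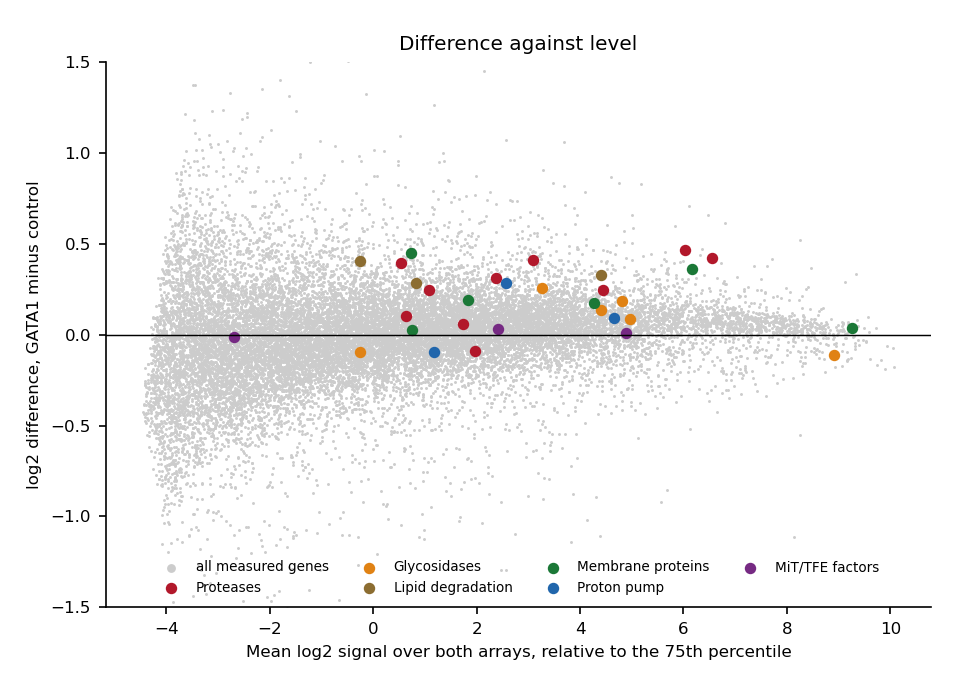
Log2 difference (GATA1 siRNA minus control siRNA) against mean log2 scaled signal over both arrays for all measured genes (grey) and the measured members (coloured by role). A total of 56 genes lie beyond the vertical limits of 1.5 and are not drawn. Ctsb, Ctsd and Lamp1 sit at 0.46, 0.42 and 0.36 among bright genes, where the grey cloud is narrow, and Tfeb is the dimmest measured member.

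Other genes of the lysosome were read in lists that leave out the members. Over 4 lists of further cathepsins, hydrolases, membrane proteins and pump subunits, 102 of 110 genes were measured. Their median difference was 0.11, 70 were above 0 and 32 below, 16 (15.7%) were higher in GATA1 siRNA cells by 0.32 or more and 7 lower by 0.32 or more. Over all measured genes, 52.7% were above 0, 7.29% were higher by 0.32 or more and 9.52% were lower by 0.32 or more. The counts of every list below are to be read beside these shares.

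The 6 other cathepsins had a median of -0.02, with 1 higher by 0.32 or more and 2 lower by 0.32 or more. Ctss, a cathepsin of antigen-presenting cells, had 10.3 in GATA1 siRNA cells and 6.46 in control siRNA cells (0.67). Ctsg, a granule serine protease, had 79.9 in GATA1 siRNA cells and 103 in control siRNA cells (-0.37), and Ctso differed by -0.18. Ctsk, a collagen-degrading cathepsin, had 0.697 in GATA1 siRNA cells and 1.61 in control siRNA cells (-1.21), at a spot whose neighbours also differed between the arrays. With such spots left out the list median was 0.15.

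Among other hydrolases, 39 of 43 were measured, with a median of 0.13 and 28 above 0; 7 were higher in GATA1 siRNA cells by 0.32 or more and 2 lower. Ids, the iduronate sulfatase, had 1.57 in GATA1 siRNA cells and 3.03 in control siRNA cells (-0.95). Naaa, an amidase of lipid amides, differed by -0.49, and Plbd1 and Pld3, a phospholipase-like protein and a lysosomal nuclease, by 0.53 and 0.44. Hyal1, a hyaluronidase, was above background on the GATA1 siRNA array only, at 1.01-fold the lowest control siRNA signal that was still well above background. Galc and Cpvl were above background on neither array.

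Among other membrane proteins, 41 of 43 were measured, with a median of 0.08, 27 above 0, 6 higher in GATA1 siRNA cells by 0.32 or more and 2 lower. Cd68, a lysosomal glycoprotein that is also a macrophage marker, had 8.65 in GATA1 siRNA cells and 4.11 in control siRNA cells (1.07, with 1.02 and 1.13 at its probes), the highest difference in these 4 lists. Mcoln2, a relative of Mcoln1, had 3.58 in GATA1 siRNA cells and 1.85 in control siRNA cells (0.95), where Mcoln1 differed by 0.03. Tpcn2, a cation channel, differed by -0.75 at a dim probe, and Mfsd12, a transporter, by 0.55. Laptm4b and Ptchd1 were not well above background.

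Of 18 further pump subunits 16 were measured, with a median of 0.10, 12 above 0, 2 higher in GATA1 siRNA cells by 0.32 or more and 1 lower. Atp6v0d2, a relative of Atp6v0d1 known from osteoclasts and macrophages, had 1.09 in GATA1 siRNA cells and 0.775 in control siRNA cells (0.48). Atp6v0c, the subunit of the proton-carrying ring, differed by -0.36. Atp6v1b2 and Atp6v0a1 differed by 0.33 and 0.24, and Atp6v0e2 and Atp6v1b1 were not well above background.

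All 11 genes of mannose 6-phosphate sorting, which delivers hydrolases, were measured, with a median of 0.06, 8 above 0 and none past the 0.32 rule; Igf2r, the large receptor, was lowest at -0.30, and M6pr, the small one, was highest at 0.18. Of 21 regulators of the MiT/TFE factors 20 were measured, with a median of 0.02 and none past the rule; the extremes were Fnip2 at 0.29 and Mlst8 at -0.24, and Lamtor4 and Fnip1 stood at 0.28 and 0.23. Rragd was not well above background. Of 18 autophagy and other CLEAR genes 17 were measured, with a median of 0.06 and 12 above 0. Hif1a was the 1 of these lower in GATA1 siRNA cells by 0.32 or more, at -0.73, with -1.04 and -0.41 at its probes. Vps11, Gpnmb and Map1lc3b differed by -0.28, 0.26 and 0.18, and Ppargc1a was not well above background.

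**Figure D5:**
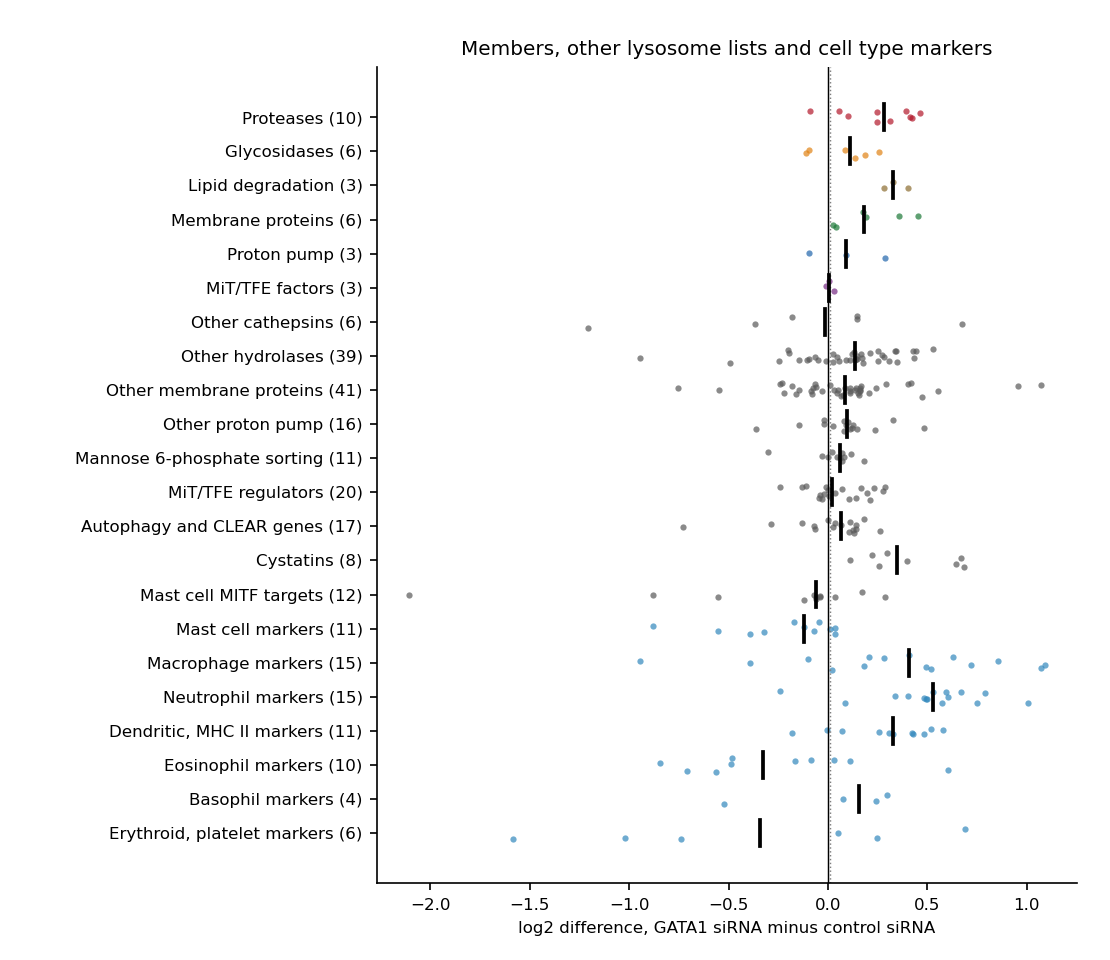
Difference (log2, GATA1 siRNA minus control siRNA) for the measured genes of each list, 1 point per gene, with the list median as a bar and the number of measured genes in brackets. Members are coloured, other lysosome lists are dark grey and cell type markers blue, and the dotted line is the median of all measured genes (0.01). The medians of proteases (0.28), neutrophil markers (0.53) and macrophage markers (0.41) lie to the right, and those of mast cell (-0.12) and eosinophil (-0.33) markers to the left.

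In 3 lists of markers of other myeloid cells, which are rich in lysosomes, most measured genes were above 0, beside 52.7% of all measured genes. Of 20 macrophage and monocyte markers 15 were measured, with a median of 0.41, 8 higher in GATA1 siRNA cells by 0.32 or more and 2 lower, and their summed scaled signal was 110 in GATA1 siRNA cells and 80.0 in control siRNA cells (1.37-fold). Ms4a7, Cd68 and Maf differed by 1.09, 1.07 and 0.85, while Cx3cr1 differed by -0.94. Csf1r, the receptor for macrophage colony-stimulating factor, had 1.02 in GATA1 siRNA cells and 1.01 in control siRNA cells. Cd163, C1qa and Mertk were well above background on neither array. C1qc was above it on the GATA1 siRNA array only, at 1.43-fold its scaled signal on the control siRNA array.

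Of 17 neutrophil markers 15 were measured, with a median of 0.53 and 13 higher in GATA1 siRNA cells by 0.32 or more. Itgb2l, Ltf, Ngp and Camp differed by 1.01, 0.79, 0.75 and 0.67, and Mmp9 and Retnlg were not well above background. The summed signal was 377 in GATA1 siRNA cells and 369 in control siRNA cells (1.02-fold). That sum includes Csf3r, with 224 in GATA1 siRNA cells and 265 in control siRNA cells (-0.24), at a spot whose neighbours also differed between the arrays. Of 12 dendritic cell and MHC class II markers 11 were measured, with a median of 0.33, 6 higher by 0.32 or more and a summed signal of 20.7 in GATA1 siRNA cells and 16.5 in control siRNA cells (1.26-fold). H2-Aa, Itgax, H2-Eb1 and H2-Ab1 differed by 0.58, 0.52, 0.48 and 0.43, and Xcr1 was not well above background.

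Of the lineages known to use GATA1, the mast cell, eosinophil and erythroid or megakaryocyte lists had medians below 0. The 11 mast cell markers had a median of -0.12 and summed to 2404 in GATA1 siRNA cells and 2627 in control siRNA cells (0.915-fold), with Mcpt4 at -0.88, Tpsb2 at -0.55, Slc18a2 at -0.39 and Il1rl1 at -0.32. The 10 eosinophil markers had a median of -0.33, with 5 lower in GATA1 siRNA cells by 0.32 or more and 1 higher, and summed to 26.6 in GATA1 siRNA cells and 35.2 in control siRNA cells (0.756-fold). Among them Epx, Prg3 and Ccr3 differed by -0.85, -0.71 and -0.56 and Siglecf by 0.60. Of 9 erythroid and megakaryocyte markers 6 were measured, 3 above 0 and 3 below. Their median was -0.34 and their sums were 41.7 in GATA1 siRNA cells and 50.9 in control siRNA cells (0.819-fold). Epor, Gp1ba and Ppbp differed by -1.58, -1.02 and -0.74 and Hba-a1 by 0.69, and Klf1 was not well above background. The 4 basophil markers had a median of 0.16 and sums of 220 in GATA1 siRNA cells and 190 in control siRNA cells (1.16-fold), with Il4 at -0.52, Mcpt8 at 0.29, Prss34 at 0.24 and Cd200r3 at 0.07. The part of these cells in the higher lysosome genes was not tested.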

How the data were processed

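Total RNA of 1 GATA1 siRNA pool and 1 control siRNA pool was measured on 2 one-colour (Cy3) Agilent arrays. Spot values are intensity in scanner units, read by the authors using Agilent Feature Extraction 10.7.3.1 (protocol GE1_107_Sep09): background-subtracted, detrended over the array surface and not scaled between arrays, per the file headers. Array coordinates are mm9, per the file headers. A further table of normalized intensity that the authors deposited has values that equal the processed signal divided by 1 constant per array, with a median of 1 on both. How it was made is not stated.

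Here, control spots and 234 outlier spots were left out, repeated spots were averaged as log2, and each array was divided by its 75th percentile (Python 3.11.15, numpy 2.4.6, pandas 2.3.3). Gene values are means over probes well above background on both arrays (28736 of 55659 probes, 20399 genes). With 1 array per group there is no test, and rules of size (a log2 difference of 1, that is 2-fold, and a finer one of 0.32) stand in its place; the number of arrays limits the precision. The script was tested on simulated data. Alternatives were median, quantile and loess scaling, the authors' table, normexp (offset 50, limma 3.58.1, R 4.3.3), no filter or a stricter filter on dim probes, the brightest probe or the median of probes, outlier spots kept, spots at 768 marked places left out (at least 2 of the 8 nearest spots differing 4-fold), and a 1.5-fold rule.

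The members and lists were chosen with earlier results of these data known. Named genes are all members, Gata1, up to 4 genes with the largest difference in each other list, and listed genes above background on 1 array only. Some items on the lists are not reported here. Csf1r, Csf3r and the listed genes not above background were named in addition, after their values were seen. Probes carry the gene names of the array files.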

Additional observations from a re-analysis of the deposited data

How the results depend on the processing

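Under 11 other settings, 334 of 340 member values stayed within 0.10 of the value given (the median SD over probes of 1 gene) and no member past the 0.32 rule changed sign. Much of that count was fixed by the settings themselves. Median scaling and the authors' table shift every gene by a constant below 0.10. No member spot was an outlier or at a marked place, so the settings for such spots shift all members alike. With no filter, only Tfeb of the measured members gains a probe. The 18 members with 1 measured probe cannot change with the brightest probe or the median of probes. Ctsb, Scarb2, Ctsl and Ctse stayed at 0.35 or above in all 11, while Ctsd, Gm2a, Psap and Lamp1 were under the rule at their lowest values, 0.31, 0.21, 0.27 and 0.29. The 6 values that moved by more than 0.10 were of Ctsd (0.31 with its brightest probe), Gaa (0.12, 0.12 and 0.11 with brighter probes, the brightest probe or the median), Gm2a (0.21 with normexp) and Tfeb (0.53 with no filter on dim probes). The all-gene median ran between -0.09 (no filter) and 0.07 (the authors' table), the member median between 0.13 and 0.25, the hydrolase median between 0.21 and 0.31 and the membrane protein median between 0.14 and 0.24. Between 25 and 28 members were above 0, and none was lower by 0.32 or more. With a 1.5-fold rule 0 members were higher, and with the 0.32 rule between 6 (loess, quantile) and 11 (the authors' table). With no filter the MiT/TFE median was 0.28 and 1 member, Tfec, passed 2-fold, both at signals near background. With marked spots left out, the median of the other cathepsins was 0.15, through the loss of Ctsk. No paired analysis was possible because each group is 1 array. No interval over cells or animals can be given, and the dim probes of Tfeb, Tfec, Gaa, Gm2a, Ctsa and Mcoln1 have the least precision.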

Other observations

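Cystatins are inhibitors of cysteine cathepsins. All 8 on the list were measured and above 0, with a median difference of 0.35 (GATA1 siRNA minus control siRNA), and 4 were higher in GATA1 siRNA cells by 0.32 or more. Cstb, an inhibitor of cathepsins in the cytosol, had a scaled signal of 70.4 in GATA1 siRNA cells and 53.5 in control siRNA cells (0.40). The stefins Stfa2l1 and Stfa3 had 2.05 and 1.61 in GATA1 siRNA cells and 1.29 and 1.03 in control siRNA cells (0.67 and 0.64). Stfa1 differed by 0.68, at a spot whose neighbours also differed between the arrays. Stefin genes lie in a family of near copies, so their probes may share signal.

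Of genes known as targets of Mitf in mast cells, all 12 were measured, with a median difference of -0.06 (0.00088 with the authors' table), 3 above 0, none higher by 0.32 or more and 3 lower in GATA1 siRNA cells by 0.32 or more. Tpsab1, a tryptase of mast cell granules, had 0.478 in GATA1 siRNA cells and 2.06 in control siRNA cells (-2.11). Mcpt4, a chymase, differed by -0.88, and Tpsb2, a second tryptase, had 254 in GATA1 siRNA cells and 371 in control siRNA cells (-0.55). Gzmb, the serine protease granzyme B, had 615 in GATA1 siRNA cells and 504 in control siRNA cells (0.29). Mitf itself differed by 0.01.

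The E-box core TCACGTG was in 12 of 82 genes of the other lysosome lists with a promoter window (14.6%), in 4 of 10 genes of mannose 6-phosphate sorting (Gga2, Gnptg, Igf2r and Nagpa), in 5 of 19 MiT/TFE regulators (Fnip1, Lamtor1, Lamtor4, Rragb and Rragc) and in none of 10 mast cell targets of Mitf, beside 4.29% of all genes.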
